A study of Mus musculus with 4 samples.

Results

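Nuclear corepressors were followed in mouse haematopoietic stem cells (HSCs), which sit in the bone marrow and supply all blood cells for life. The set holds 7 genes, Hr, Bcor, Ncor1, Nrip1, Sin3a, Hdac3 and Tbl1xr1, each found as 1 row by its symbol among the 34315 features of the deposited table. They were chosen by name with their counts in wild type and in the arm labelled knockout already known, so those values are given as a description without a test. The cells were freshly sorted from C57BL/6 mice as SP-KSL-CD150+ cells, a side population that exports a dye and carries the stem cell surface phenotype. The wild-type group has 4 libraries, which the labels call technical replicates of biological replicate 1, so their spread may not measure variation between animals. The design text instead speaks of duplicates, and the sources used here do not settle how many animals or sorts the libraries come from. The other arm is labelled Dnmt3a-KO, for loss of a DNA methyltransferase, and enters only as the authors' mean count, log2 fold change and p-value per feature. The sources used here do not give the age of the mice, the deleted part of the gene or any Cre driver.

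A corepressor is a protein that is recruited to DNA by a transcription factor and lowers transcription there, mostly by bringing enzymes that remove acetyl groups from histones. Ncor1 encodes a scaffold that binds unliganded thyroid hormone and retinoic acid receptors, Hdac3 the deacetylase that the scaffold activates, and Tbl1xr1 a WD40 protein of the same complex that also helps exchange corepressors for coactivators. Sin3a encodes the scaffold of a separate complex around Hdac1 and Hdac2. Nrip1 encodes a corepressor (RIP140) that binds nuclear receptors in their ligand-bound state. Bcor encodes a partner of the repressor Bcl6 and a core part of a variant Polycomb complex, and is recurrently mutated in myeloid leukaemia. Hr encodes Hairless, a JmjC-domain corepressor of the vitamin D, thyroid hormone and ROR receptors best known from the hair follicle and brain.

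Promoter sequences, from 250 bases before to 50 after a start site, were on hand for 5 of the 7 genes from RefSeq (GRCm38.p6). Hr and Hdac3 had none. The following 3 are shown because Bcor had the largest ratio of knockout to wild type among the genes with a sequence, Tbl1xr1 lies beside a locus that fell, and Nrip1 has the most CpG sites. They are printed 5′ to 3′ on the gene's strand with each CpG, the dinucleotide that DNA methyltransferases methylate, in capitals.
Bcor, chrX:12160297-12160596, minus strand: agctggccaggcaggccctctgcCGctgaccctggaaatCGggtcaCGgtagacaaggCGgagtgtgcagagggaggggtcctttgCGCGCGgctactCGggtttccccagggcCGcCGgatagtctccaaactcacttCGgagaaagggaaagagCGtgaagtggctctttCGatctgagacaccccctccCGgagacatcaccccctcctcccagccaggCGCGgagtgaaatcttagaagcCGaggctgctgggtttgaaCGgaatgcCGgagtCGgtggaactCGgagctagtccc
Tbl1xr1, chr3:22076402-22076701, plus strand: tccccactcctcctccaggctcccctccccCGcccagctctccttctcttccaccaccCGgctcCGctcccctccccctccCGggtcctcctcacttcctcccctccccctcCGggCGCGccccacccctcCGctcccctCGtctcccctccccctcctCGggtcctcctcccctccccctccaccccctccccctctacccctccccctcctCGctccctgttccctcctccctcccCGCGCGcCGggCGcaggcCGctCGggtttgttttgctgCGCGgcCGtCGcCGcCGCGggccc
Nrip1, chr16:76373000-76373299, minus strand: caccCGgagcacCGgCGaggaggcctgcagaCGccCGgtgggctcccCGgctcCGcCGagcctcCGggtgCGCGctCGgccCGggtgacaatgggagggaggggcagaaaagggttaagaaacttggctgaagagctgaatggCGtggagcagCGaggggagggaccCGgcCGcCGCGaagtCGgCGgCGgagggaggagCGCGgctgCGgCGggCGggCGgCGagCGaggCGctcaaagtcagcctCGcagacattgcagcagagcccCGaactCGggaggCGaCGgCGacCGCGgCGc
The Bcor window holds 21 CpG sites, the Tbl1xr1 window 25 and the Nrip1 window 40, where the median over 32851 promoter windows is 7. A second Nrip1 start has 6 CpG sites, and the 2 starts of Ncor1 have 36 and 2. None of the 9 start windows of the genes with a sequence contains AAAGGTCA, the letters bound by Nr4a receptors, on either strand. TGACGTCA, the cAMP response element, is absent from them too. Hr has no window here and was not searched. AAAGGTCA is found in 1.51% of all windows and TGACGTCA in 1.79%. GGGCGG, an Sp1-type box, has 2 copies at the printed Nrip1 start and 1 copy at Tbl1xr1, and 35.7% of all windows hold it on either strand. Methylation of these windows was not analysed here.

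The wild-type libraries held 40709659 to 47408552 counts. Libraries 1 and 2 had a median chi-square per degree of freedom of 0.763 and libraries 3 and 4 one of 0.682, both above the 0.455 that counting noise alone gives. Between a library of one pair and a library of the other the lowest median was 12. The libraries thus form 2 pairs of near duplicates, and an SD over 4 libraries mostly reflects the gap between the pairs, so pair means are also given. All 10 stem cell markers, Kit, Slamf1 and Procr among them, were measured and summed to 155024 to 190922 normalised counts in wild type and 147034 in the knockout mean, with Cd34 the member called lower in the authors' deposited table. Neutrophil granule genes summed to 54836 and 53961 in the first pair, 16467 and 16286 in the second, and 35771 in the knockout mean. Immediate early genes summed to 10030 and 10263, then 224372 and 218653, and 90380 in the knockout mean. Of these 10 genes 2 were called lower in the authors' deposited table, as were 4.30% of features averaging 10 or more over both arms. Dnmt3a itself was not lower, at 6852 ± 1794 (SD, 4 libraries) in wild type and 8424 in the knockout mean, and this whole-gene count cannot check a partial deletion.

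In wild-type HSCs 6 of the 7 corepressor genes were well expressed and Hr was near silent. Hr (chromosome 14, 70953863 to 70973349, plus strand, mm9) had 7, 6, 6 and 3 reads in libraries 1 to 4, or 7.36, 6.28, 5.72 and 2.82 normalised counts. Its 22 reads have an exact Poisson 95% interval of 13.8 to 33.3, which covers counting error only. Library 4 is the lowest, but by too few reads to set it apart from the others.

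Levels between genes were compared as normalised reads per kb of exon, since longer transcripts yield more reads. The deacetylase gene Hdac3 (chromosome 18, 38096625 to 38114642) had the highest level, at 2203, 2194, 2257 and 2189 per kb in libraries 1 to 4. The scaffold gene Ncor1 (chromosome 11, 62129928 to 62270834) followed at 1820, 1858, 1691 and 1647 per kb, above Nrip1 in every library. Nrip1 (chromosome 16, 76291107 to 76373294) had 1601, 1618, 1617 and 1592 per kb, the narrowest spread of the set. Sin3a (chromosome 9, 56919847 to 56976175) stood at 1630, 1629, 1496 and 1510 per kb. Nrip1 and Sin3a therefore do not differ beyond the spread: Sin3a was the higher in libraries 1 and 2 and Nrip1 in libraries 3 and 4. Bcor (chromosome X, 11613864 to 11737481), counted in 1 feature together with 2900008C10Rik, had 1056, 1090, 1161 and 1125 per kb. Tbl1xr1 (chromosome 3, 21975574 to 22115516) had 769, 768, 690 and 715 per kb, and Hr 1.35, 1.15, 1.05 and 0.516. Apart from the exchange of Nrip1 and Sin3a, the order was the same in all 4 libraries.

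**Figure D1:**
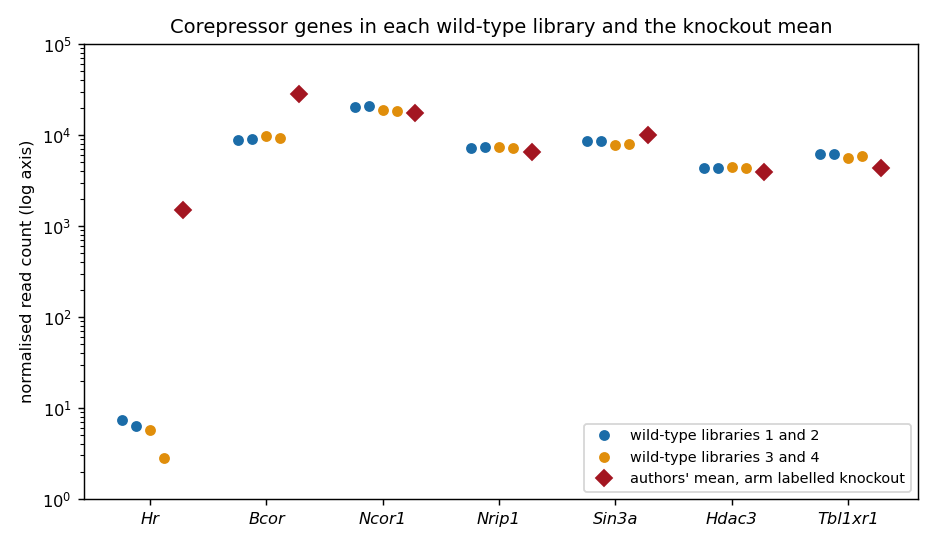
Normalised read counts (log axis) of the 7 genes in each wild-type library (circles, coloured by library pair) and in the authors' mean for the arm labelled knockout (diamonds). Hr lies between 2.82 and 7.36 in wild type and at 1485 in the knockout mean, while Bcor is the other gene with a wide gap.

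The wild-type pairs were also compared with each other. At least 2-fold differences between them were found for 0 of the 7 genes, near the share of 6.11% among the 13089 features that averaged 100 or more, a level that Hr does not reach. The first pair averaged 7283 normalised counts of Nrip1 and the second pair 7259, and Hdac3 had 4375 and 4424, with overlapping pairs for both genes. The pairs of the other 5 genes did not overlap, which is also true of 87.1% of features at that level. Bcor averaged 8900 and 9481, a log2 difference of 0.09, and Ncor1 20408 and 18521, a log2 difference of -0.14. Sin3a averaged 8506 and 7846 and Tbl1xr1 6231 and 5697, both slightly lower in libraries 3 and 4. Hr averaged 6.82 and 4.27, and without replicate 3 its log2 difference is -1.28, a value that rests on 3 reads.

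Set beside wild type, the knockout arm had the larger differences for Hr and Bcor, 2 genes at least 2-fold apart from wild type, as were 37.5% of all tested features. The call of the authors' deposited table is an adjusted p under 0.05, and it marks 1 of the 7 genes as higher and 0 as lower, where 6.84% of 21778 tested features were called, 3.15% higher and 3.70% lower. These calls use the contrast by which the genes were chosen, and nothing is read from their number. The deposited p-values are read as adjusted, so no count at an unadjusted p can be given. The knockout mean lay above all 4 wild-type libraries for 3 of the genes and below them for the other 4, as it lay outside that range for 83.2% of features averaging 100 or more over both arms.

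Hr rose from the 2.82 to 7.36 normalised counts listed above to a knockout mean of 1485, or from a level of 1.02 ± 0.356 per kb (SD, 4 libraries) to 272 per kb. The authors' deposited table gives a fold change of 221 with an adjusted p of 2.95e-09, the ninth largest rise of all tested features on the log2 scale. The ratio of the normalised means is 268, with a counting interval of 177 to 428. It is 218 against libraries 1 and 2 and 348 against libraries 3 and 4, as the few wild-type reads set the denominator. Even so, the level per kb in the knockout mean was below that of every other member. More Hr-expressing cells and more Hr RNA per cell cannot be told apart in bulk samples. Keratinocyte and hair follicle markers were looked at beside this gain because Hr is known from those cells. The markers Krt5, Krt14, Krt15 and Dsg3 had 0 reads in all 4 wild-type libraries and in the knockout mean, which in the shallowest library leaves room for 0.0737 CPM (reads scaled to the library total). Trp63 had 3 wild-type reads and none in the knockout mean, and Krt10 had 38.5 to 67.3 normalised counts in wild type and 7.25 in the knockout mean. The summed level of all 6 markers was 39.4 to 67.3 in wild type and 7.25 in the knockout mean. These markers do not cover every gene known from such cells. The galectin gene Lgals7, also known from keratinocytes, had 2.10 to 3.14 in wild type and 1220 in the knockout mean. It was not on the marker list and was picked for a pattern like that of Hr, so its values are only a description. The cell source of the Hr gain was not tested.

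Genes around Hr were looked at too. Within 60 kb of Hr the table has 7 other features, of which 6 were tested and 0 called. Of all tested features 6.84% were called, so nothing is read from 0 of 6. The log2 changes of the 6 tested features were -1.44 to 1.15 in the authors' deposited table. Reep4 ends 5120 bases before Hr, and had 1797, 1778, 1356 and 1334 normalised counts in wild type and 1889 in the knockout mean. Nudt18 starts 4304 bases after Hr, and had 732, 699, 1047 and 988 in wild type and 632 in the knockout mean.

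Bcor had 8757, 9043, 9631 and 9332 normalised counts in libraries 1 to 4 and 28555 in the knockout mean, which is above all 4. The authors' deposited table gives a ratio of 3.11 (log2 1.63) with an adjusted p of 0.295, so Bcor was not called. Of 989 tested features with an average level within 2-fold of that of Bcor, 94 had a log2 fold change at least as high in the authors' deposited table, and 63 of these were not called. The smallest called rise among them was 5.69-fold. On the scale per kb Bcor held rank 5 of the 7 genes in every wild-type library and rank 1 in the knockout mean, at 3443 per kb.

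The other 5 genes had small log2 fold changes and high adjusted p-values in the authors' deposited table. Ncor1 had 20196, 20619, 18769 and 18273 normalised counts in wild type and 17522 in the knockout mean, a log2 change of -0.15 (adjusted p 0.986) in the authors' deposited table. Its partner Hdac3 had 4385, 4365, 4492 and 4357 in wild type and 3941 in the knockout mean, with -0.16 (adjusted p 0.984) in the same table. The authors' deposited table gives Nrip1 a log2 change of -0.15 (adjusted p 0.986), from 7244, 7322, 7316 and 7203 in wild type to a knockout mean of 6549. These 3 values are smaller than the shift of all genes between scalings: the median log2 ratio of 11936 well-counted features was 0.06 on the authors' scaling, -0.28 when both arms are scaled to column totals and -0.34 unscaled. Tbl1xr1 had 6236, 6226, 5593 and 5802 in wild type and 4328 in the knockout mean, a log2 change of -0.46 (adjusted p 0.904) in the authors' deposited table. Sin3a had 8509, 8502, 7809 and 7884 in wild type and 9907 in the knockout mean, and its log2 change of 0.28 (adjusted p 0.959) in the authors' deposited table becomes -0.06 with column totals and -0.13 unscaled. Hr and Bcor kept a positive value under every scaling, at 7.68 to 7.79 and at 1.23 to 1.63 respectively, and Ncor1, Hdac3, Nrip1 and Tbl1xr1 a negative value.

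**Figure D2:**
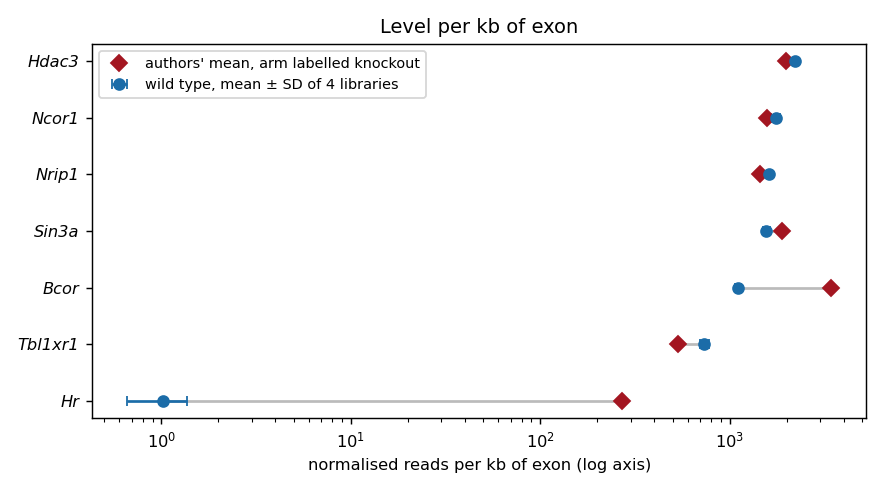
Normalised reads per kb of exon (log axis) for the 7 genes, with wild type as circles (mean ± SD of 4 libraries). Diamonds show the authors' mean for the arm labelled knockout. The 4 libraries form 2 pairs of near duplicates. Hr moves from 1.02 to 272 and Bcor from 1108 to 3443, and the other 5 genes stay near their wild-type level.

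Ratios between genes of the same library do not depend on the scaling between libraries, and were used to set each member beside its partners and relatives. The ratio of Hdac3 to Ncor1 was 1.21, 1.18, 1.33 and 1.33 per kb in the wild-type libraries and 1.25 in the knockout mean, within the wild-type range. Nrip1 to Ncor1 was also within it, at 0.88, 0.871, 0.956 and 0.967 in wild type and 0.917 in the knockout mean. Tbl1xr1 to Ncor1 was 0.408 to 0.434 in wild type and 0.338 in the knockout mean, and Sin3a to Ncor1 was 0.877 to 0.917 and 1.20. Bcor to Ncor1 was 0.58, 0.587, 0.687 and 0.683 in wild type and 2.18 in the knockout mean, so that the order of these 2 genes was reversed.

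Some members were also compared with a close relative. Tbl1xr1 was the less abundant of the 2 TBL1 genes throughout, at 0.42, 0.42, 0.311 and 0.324 of Tbl1x in wild type and 0.282 in the knockout mean. Sin3a to Sin3b was 1.47 to 1.57 in wild type and 1.11 in the knockout mean. Hdac3 was above Hdac1 in wild type, at 1.31 to 1.36, and below it in the knockout mean at 0.782. Its ratio to Hdac2 moved the other way, from 0.639 to 0.680 in wild type to 0.850 in the knockout mean. Bcor stood 3.16 to 3.71 times above Bcorl1 in wild type and 4.90 times in the knockout mean. None of Tbl1x, Sin3b, Hdac1, Hdac2 and Bcorl1 was called in the authors' deposited table.

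**Figure D3:**
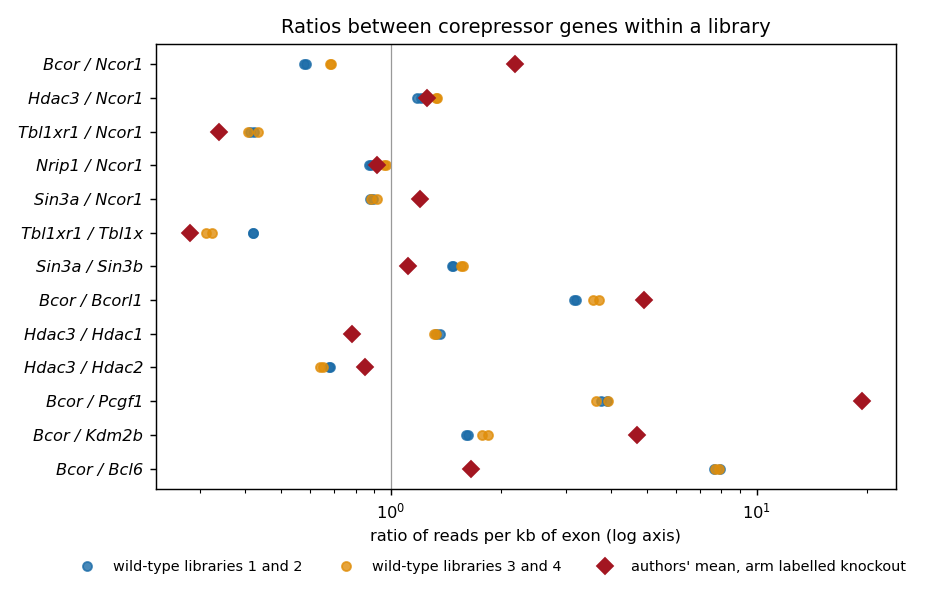
Ratios of reads per kb of exon between 2 genes of the same library (log axis, grey line at 1), for each wild-type library (circles, coloured by pair) and for the authors' knockout means (diamonds). The Hdac3 to Ncor1 and Nrip1 to Ncor1 diamonds lie within the wild-type circles, and the Bcor ratios to Ncor1, Pcgf1 and Bcl6 lie farthest from them.

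Among genes of the wider corepressor pathways, Bcl6 and Cbx8 were called. Over 9 corepressor, deacetylase and JmjC lists besides the coactivators, receptors and 7 members, 77 of 78 matched genes were measured, at a mean of both arms of at least 10 normalised counts. Of these, 1 was called higher and 1 lower in the authors' deposited table, against 3.72% and 4.30% of all 17684 measured features. Their median log2 fold change was 0.44 in the authors' deposited table, and that of all measured features was -0.04.

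The called genes were both in the BCOR list, of which 11 genes besides Bcor were measured. Bcl6, the zinc finger repressor that gave Bcor its name, had 437.5, 467, 482 and 481 normalised counts in wild type and 6795 in the knockout mean, a 14.5-fold rise in the authors' deposited table (adjusted p 0.00124). The wild-type libraries differ little and the knockout mean is far above them. The ratio of Bcor to Bcl6 was 7.65 to 7.90 per kb in wild type and 1.66 in the knockout mean. Cbx8, a chromodomain protein of Polycomb complexes, had 359, 383, 282 and 328 in wild type and 21.1 in the knockout mean, and fell 15.1-fold in the authors' deposited table (adjusted p 0.00131). The subunits that define the variant Polycomb complex of Bcor were not called: Pcgf1 had a log2 change of -0.71 (adjusted p 0.807) and the CpG-binding demethylase Kdm2b 0.17 (0.983) in the authors' deposited table. Other genes of the BCOR list were higher there without a call, beside 1.63 for Bcor itself. Yaf2 had 1.83 (adjusted p 0.210), Rybp 1.27 (0.484), Usp7 0.94 (0.675) and Rnf2 0.78 (0.764). Ring1 had -0.30 and Skp1a -0.01. Of the 11 measured genes 7 had positive values and 4 negative ones, and the middle value was 0.78. Bcor to Pcgf1 was 3.63 to 3.93 per kb in wild type and 19.4 in the knockout mean. Bcor to Kdm2b was 1.61 to 1.84 in wild type and 4.71 in the knockout mean.

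In the NCoR list 5 further genes were measured and 0 called, with a median log2 change of -0.09 in the authors' deposited table. Over all measured features 3.72% were called higher and 4.30% lower, so nothing is read from counts of 0 in single lists. They include Gps2, an inhibitory subunit, at 0.46 (adjusted p 0.906), the zinc finger protein Zbtb33 at 0.60 (adjusted p 0.853) and the demethylase Kdm4a at -0.71 (adjusted p 0.800) in the authors' deposited table. In the Sin3 list 20 genes were measured and 0 called, with a median of 0.39 and a range of -1.07 for Fam60a to 1.02 for Ing2 in the authors' deposited table. The deacetylases were likewise uncalled, with Hdac5 at 1.41 (adjusted p 0.410), Hdac9 at 1.26 (0.495) and Hdac2 at -0.52 (0.883) in the authors' deposited table. Among the 6 Groucho genes Tle1 had the largest value, 2.34 in the authors' deposited table (adjusted p 0.0736). The extremes of the CtBP and CoREST list were Rcor2 at 1.34 and the lymphoid regulator Ikzf1 at -1.20, both uncalled in the authors' deposited table. The NuRD list ranged from -0.57 for Mta1 to 1.15 for Chd3 in the authors' deposited table, with Gatad2b at 0.96 and 0 called. The list that holds Nrip1 was drawn up for corepressors of ligand-bound receptors, a role not established for its member Pcbd1. Pcbd1 had -1.99 (adjusted p 0.158) and Tnip1 1.75 (adjusted p 0.244) in the authors' deposited table. The JmjC relatives of Hr were uncalled too, with Jmjd1c at 1.69 (adjusted p 0.270), Kdm3a at 0.95 (0.671) and Kdm3b at 0.03 (1) in the authors' deposited table.

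**Figure D4:**
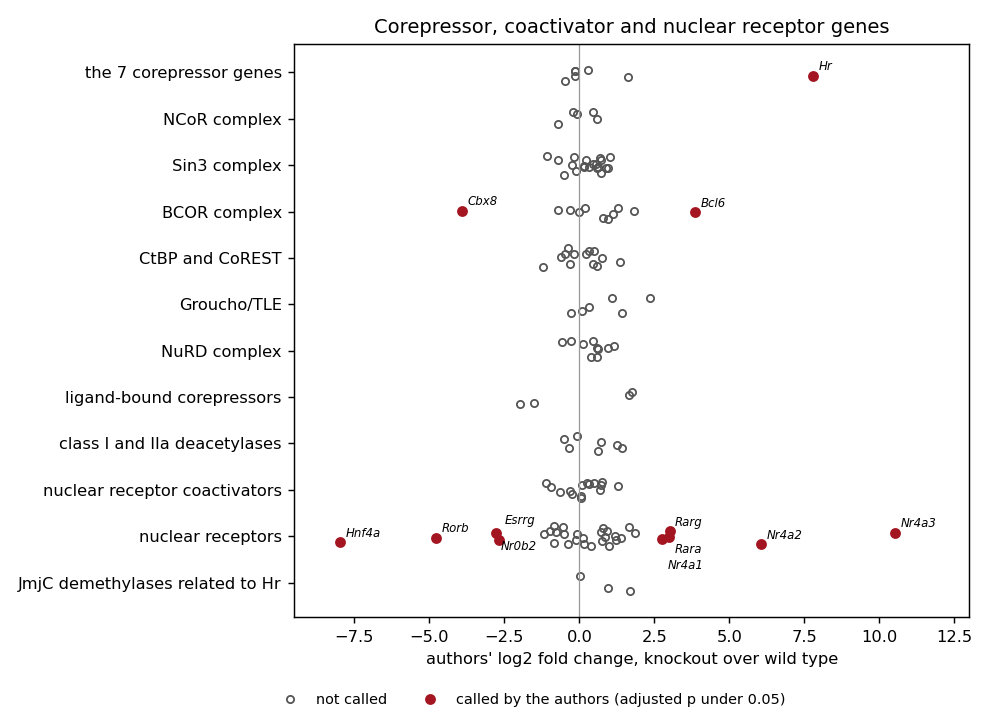
Log2 fold changes of the authors' deposited table, knockout over wild type, for measured genes of each list (rows), with genes called at an adjusted p under 0.05 filled and named. Apart from Hr, Bcl6 and Cbx8, the named genes are all nuclear receptors.

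Nuclear receptors, the factors that recruit most of these corepressors, were mostly uncalled, with calls in both directions. Of 40 listed receptors 33 were measured, of which 5 were called higher and 4 lower in the authors' deposited table, with a median of 0.39. The shares over all measured features were the 3.72% higher and 4.30% lower given above. Hairless is known to bind receptors such as Vdr, Thra and Rora, none of which was called. Vdr had a log2 change of 1.40 (adjusted p 0.415), Thra -0.50 (0.891) and Rora 1.18 (0.540) in the authors' deposited table. Rorb, a relative of Rora, was called lower, at 55.7, 89.0, 236 and 245 normalised counts in wild type and 4.28 in the knockout mean, a 27.4-fold fall in the authors' deposited table (adjusted p 0.000125). The retinoic acid receptors Rara and Rarg rose 7.93-fold and 8.07-fold in the authors' deposited table (adjusted p 0.0150 and 0.0139). The orphan receptors Nr4a1, Nr4a2 and Nr4a3 rose 6.82-fold, 66.3-fold and 1481-fold in the authors' deposited table, with adjusted p-values of 0.0260, 6.53e-07 and 1.55e-13. Nr4a1 is an immediate early gene whose wild-type pairs stood at 394 and 18339 normalised counts, so its knockout mean of 64126 is 163-fold above the first pair and 3.50-fold above the second. Hnf4a fell 250-fold, Nr0b2 6.91-fold and Esrrg 6.35-fold in the authors' deposited table (adjusted p 4.86e-09, 0.0377 and 0.0479), with Esrrg at 46.7 and 119 in the wild-type pairs. Of 15 coactivators, the counterparts that receptors bind in place of a corepressor, 0 were called, with Crebbp at 1.29 and Ppargc1a at -1.13 as the extremes in the authors' deposited table. The parts of the granule, immediate early and other marker genes in these differences were not tested.

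The position of Tbl1xr1 showed a second transcript with another pattern. An unnamed locus, HNG_024698 (chromosome 3, 21972961 to 21975167), ends 406 bases before Tbl1xr1 on the same strand. It had 158, 161, 218 and 192.5 normalised counts in wild type and 17.1 in the knockout mean, a 9.91-fold fall in the authors' deposited table (adjusted p 0.00793), where Tbl1xr1 itself was uncalled. The locus was singled out after its values were seen. Ncor1 shares 16 bases with Ttc19 on the other strand, which unstranded reads could not assign, and Ttc19 had a log2 change of 0.71 (adjusted p 0.804) in the authors' deposited table.

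The genes most like Hr in pattern were sought among 11223 symbol-named genes with a mean of both arms of at least 50 normalised counts. Likeness was the smallest distance between centred log2 profiles over 5 values, the 4 wild-type libraries and the knockout mean. The nearest to Hr were the galectin Lgals7 at a distance of 1.10, the cell cycle inhibitor Cdkn2b at 1.24 and the inhibitory receptor Pdcd1 at 1.24. Lgals7 had 2.10 to 3.14 normalised counts in wild type and 1220.5 in the knockout mean, and Cdkn2b 0.954 to 3.14 and 423. Pdcd1 had 3.82 to 8.37 in wild type and 2284 in the knockout mean. Lgals7, Cdkn2b and Pdcd1 reach the minimum level only through the knockout mean. Their likeness to Hr thus describes that high value and a few wild-type reads. For Bcor the nearest were Bcl9l at 0.0273, Trf at 0.0325 and Ptpn1 at 0.0579, with fold changes of 3.15, 3.06 and 3.17 in the authors' deposited table. The nearest to Nrip1 were Rnf180 at 0.0145, Usp54 at 0.024 and Stk10 at 0.0252, all with log2 changes of -0.14 to -0.17 in the authors' deposited table.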

How the data were processed

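RNA was extracted from sorted HSCs and libraries were made after polyA selection with a TruSeq RNA kit, per the labels' protocols. The kit as named does not mark strand. Per the submitters' processing notes, the build is mm9 and DESeq was among the tools, without role or version. The sources used here give neither aligner nor annotation. The authors deposited read counts per feature and library. A length-scaled signal was deposited by the authors under an FPKM heading, but its ratio to the count is the same in every library, so it was used only to derive exon lengths. The knockout mean is deposited by the authors as an expected count, averaged and therefore not whole. The log2 fold change deposited by the authors is knockout over wild type, and the p-value deposited by the authors is read as adjusted, since 1549 values equal 1. A further 8 per-library columns match no sample given here and were left out.

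Each library was scaled by its median-of-ratios size factor (0.951, 0.955, 1.048 and 1.065). The knockout mean was multiplied by 1.32, the factor that brings its ratio to wild type onto the authors' log2 fold change over 11936 features (SD 0.003 on the log2 scale), with coordinates as in the table. No test between genotypes was run. Chi-square tests of homogeneity compared libraries over features with at least 20 reads. The functions were tested on simulated data. Of 141 genes in 11 lists 140 matched by symbol. Some list genes are not reported here and were left out of these lists and their counts. Members and lists were chosen with earlier results of these data known. Named were the 7 members, every called list gene (otherwise the 2 largest changes per list), fixed partners and the 3 nearest patterns. Further genes of the BCOR list were named beside these. Marker lists covered stem cell, neutrophil, macrophage, erythroid, megakaryocyte, B cell, T cell, endothelial and stromal, keratinocyte and immediate early genes. Alternatives were library totals, TMM (edgeR 4.0.16), other scalings, either library pair alone, each library left out, pseudocount, minimum level and threshold. Python 3.11.15, scipy 1.17.1 and R 4.3.3 were used.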

Additional observations from a re-analysis of the deposited data

Results flagged for a closer look

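Among 48 named genes with 4 wild-type libraries, 1 had a library set apart from the others by the gap to its nearest neighbour relative to the range. The coactivator gene Ppargc1a had 219 normalised counts in replicate 2, and 239, 238 and 240.4 in replicates 1, 3 and 4. Chance alone flags about 1 in 20 groups.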

How the results depend on the processing

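No paired analysis was possible because only 1 group has labelled samples. The median wild-type level of the 7 genes, 7271 normalised counts, was 7254 to 7294 with each replicate left out. It moved less than the spread between libraries under library totals and TMM. This median is the value of Nrip1 in every setting, so its stability is that of 1 gene and not of the set. The number of members at least 2-fold apart from wild type was 2 under every scaling, baseline, pseudocount and left-out replicate tried. The number at least 2-fold apart between the wild-type pairs was 0, and 0 to 1 with each replicate left out; the gene is Hr without replicate 3. Of 125 measured list genes, 11 were called, or 9 with a minimum of 50 normalised counts and 12 at an adjusted p under 0.1. Without a p, 37 were at least 2-fold apart, of which 26 were higher and 11 lower. Over all measured features 3.72% were called higher and 4.30% lower. Of all tested features 37.5% were at least 2-fold apart, 15.6% higher and 21.8% lower. For single members, 135 alternative values moved less than the spread between libraries and 19 moved more, without a change of sign for Hr. Depth limits Hr in wild type, at 22 reads, while the other members had over 2000 reads per library. The labels assign the 4 libraries to 1 biological replicate while the design text speaks of duplicates, and the spread of the knockout arm was not analysed here.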

Other observations

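Markers of other lineages were set beside the corepressor genes. The sum of 9 erythroid markers was 43805 to 58195 normalised counts in wild type and 20380 in the knockout mean, with 5 called lower in the authors' deposited table. That of 6 megakaryocyte markers was 21370 to 24769 and 6347, with 3 called lower there. The sum of 7 macrophage markers was 1021 to 1874 and 938, and 4 of them (Emr1, C1qa, C1qb and Cd5l) were called lower, 6.94-fold to 11.2-fold, in the authors' deposited table. Cd68 differed from these, at 152 to 250.3 in wild type and 555 in the knockout mean, uncalled. For 6 B cell markers the sum was 1040 to 1350 and 369, with 1 called lower, and for 6 endothelial and stromal markers 4084 to 6097 and 3477, with 2 called lower. Of 5 T cell markers 2 were measured and 0 called, and the sum of 494 to 547 in wild type and 767 in the knockout mean was mostly Lck, at 370.2 to 446 and 742. Cd4 had 56.3 to 132.5 in wild type and 22.4 in the knockout mean. No marker of these lists was called higher in the authors' deposited table, where 3.72% of all measured features were called higher and 4.30% lower. The parts of these markers in the corepressor values were not tested.

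A pair of corepressor-linked genes separated the wild-type pairs by more than any of the 7 members, and was chosen after its values were seen. Ogt, the O-GlcNAc transferase that binds the Sin3 complex, had 31730 and 31272 normalised counts in the first pair, 7385 and 7309 in the second, and 31531 in the knockout mean. Its log2 change of 0.70 in the authors' deposited table (adjusted p 0.806) therefore averages over wild-type pairs that are far apart. The Groucho gene Tle2 had 2125 and 2185, then 550.4 and 520.3, and 2870 in the knockout mean, with 1.10 (adjusted p 0.590) in the authors' deposited table.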
